A study of Mus musculus with 6 samples.

Results

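The genes described are 10 factors that detect stalled or collided ribosomes, take them apart, or clear the unfinished protein left behind: Zfp598, Edf1, Ascc3, Map3k20, Pelo, Hbs1l, Gtpbp1, Gtpbp2, Nemf and Ltn1. They were chosen by name, through the Ensembl IDs of these symbols, with earlier results of these data known. All 10 were found among the 55538 genes of the table. Total RNA was sequenced from primary cortical neurons of C57BL/6 mice, isolated at embryonic day 14.5 and rested for 2 h before treatment. Each of 3 groups had 2 libraries. The control stayed at 37 °C for 60 min, and the heated groups spent 15 min or 60 min at 42 °C. No control of 15 min is described, so time in culture and heat cannot be told apart in any comparison with the 15 min group. The study asks how heat affects elongation by ribosomes and stress signalling in neurons. No transgene or mutation is named for any group. Whether the 2 libraries of a group came from separate cultures is not stated, so p-values measure the spread between these libraries, which may be technical.

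A ribosome that stops on a message is soon hit by the one behind it, and the collided pair is the signal that some of these factors read. One branch marks the small subunit and pulls the leading ribosome apart, another recognises a ribosome with an empty decoding site and splits it, and yet another attacks the nascent chain trapped in the large subunit. Neurons are sensitive to defects here: loss of Gtpbp2 together with a defect in a brain-specific arginine tRNA, which the C57BL/6J substrain carries, causes neurodegeneration in mice, and so do mutations of Ltn1 or Nemf. The labels give C57BL/6 with no substrain.

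None of the 10 transcripts passed the test after either time at 42 °C, where 0% of all genes tested passed at 15 min and 0.041% at 60 min. Gtpbp2, a GTPase linked to the rescue of stalled ribosomes, lay furthest from the other groups: its 60 min level was 57.7% of the control mean and 52.8% of the 15 min mean, and both libraries were below the other 4. Its paralogue Gtpbp1 was at 100.2% of control. Ascc3, the helicase that dismantles collided ribosomes, was at 134.7% of control at 60 min. Edf1, an early collision sensor, was at 142.7% of control at 15 min and 130.5% at 60 min.

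As a check of the labels, summed Hspa1a and Hspa1b signal, from the inducible Hsp70 genes, reached 1468 and 1345 at 60 min, against at most 11.1 in every other library. The 10 pan-neuronal markers summed to 1414 to 2017 over the 6 libraries and the 9 progenitor markers to 2378 to 3377. Marker sums of other cell types ran from 2.73 to 13.8 for astrocytes, 8.67 to 15.2 for the oligodendrocyte lineage, 9.96 to 18.9 for microglia, 11.6 to 19.6 for vessels and 5.34 to 9.71 for fibroblasts, but from 200.2 to 456 for erythroid genes. For all of these types except erythroid, the highest sum was that of control s1. In the same order, the other 5 libraries reached at most 5.46, 10.3, 15.1, 19.2 and 8.59. None of these markers was listed at 0 in all 6 libraries. One library differed from the rest: control s1 held 29309 genes at a signal of 1 or more, against 19035 to 21796 in the other 5. Genes with a mean of at least 20 were low in it, at a median of 0.893 of their geometric mean over the libraries, against 0.961 to 1.08 elsewhere. The 10 transcripts summed to 559 in control s1 and to 629 to 728 elsewhere. Values are a signal per gene that the authors scaled per transcript length and per library. The depth of each library is unknown.

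Ordered by mean level, Edf1 was the most abundant of the 10, at a mean of 270.95 over the 6 libraries and above 97.6% of the 21954 genes tested. Gtpbp1 (106.5), Hbs1l (86.2) and Gtpbp2 (58.6) followed, then Nemf (43.1), Ltn1 (29.4), Ascc3 (23.8), Zfp598 (22.2), Pelo (12.2) and Map3k20 (7.61). Map3k20 still lay above 52.7% of the genes tested. The ranges over the libraries were separate between Edf1 and Gtpbp1, between Hbs1l and Gtpbp2, between Nemf and Ltn1, and between Zfp598 and Pelo. The other 5 pairs of neighbours overlapped in range. The order of Gtpbp2 and Nemf held in 4 of 6 libraries: in both 60 min libraries Nemf was the higher. The spread over all 6 libraries was widest for Gtpbp2, with a coefficient of variation of 28.0%, and narrowest for Hbs1l, at 7.70%.

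**Figure D1:**
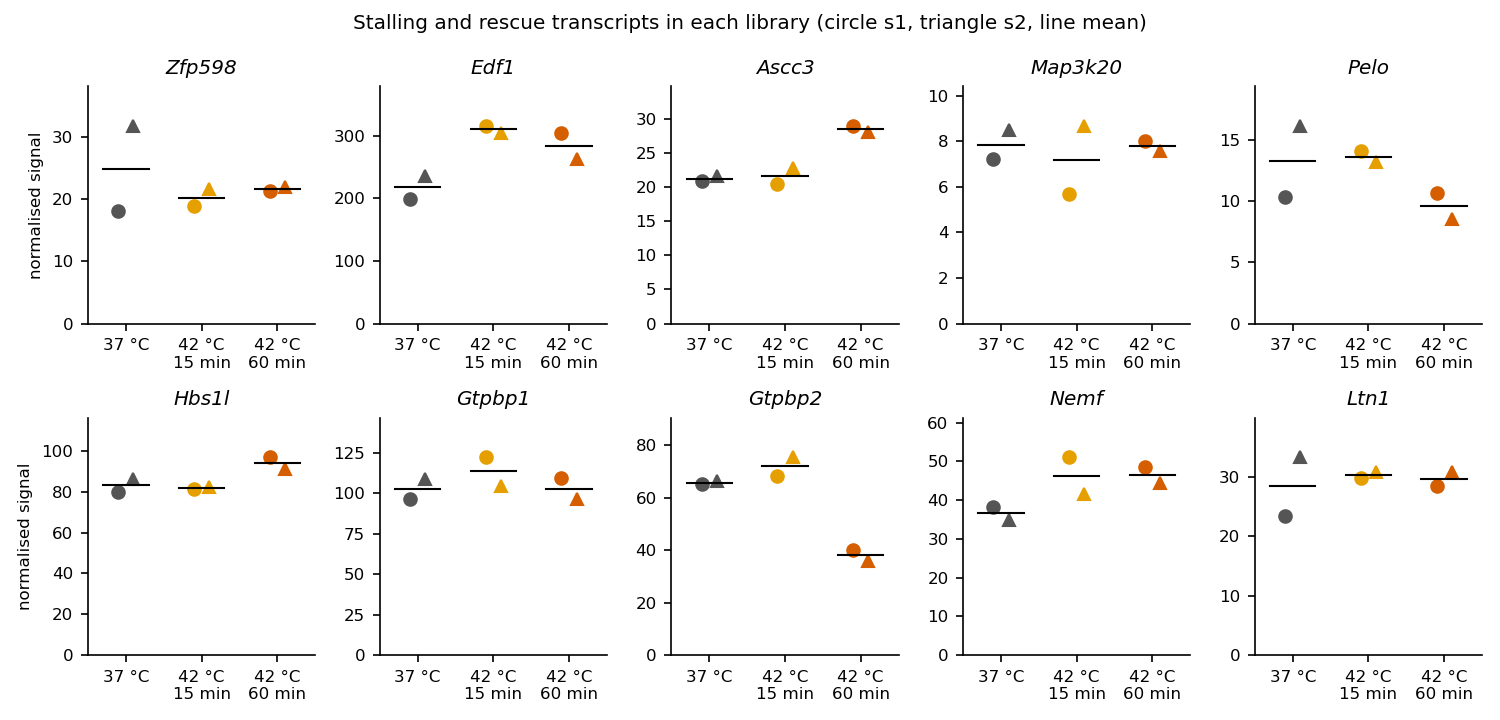
Normalised signal (vertical axis, linear from 0, a scale for each gene) of each of the 10 transcripts in the 6 libraries, by group on the horizontal axis; circles are s1, triangles s2 and lines the mean of 2. Both Gtpbp2 points at 60 min lie below its other 4, both Ascc3 points at 60 min lie above its other 4, and the control points of Zfp598, Pelo and Ltn1 are far apart.

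Among the factors that read collisions, Zfp598 encodes the ubiquitin ligase (ZNF598 in human) that marks proteins of the small subunit on collided ribosomes. Its signal was 18.0 and 31.8 in the control libraries, 18.9 and 21.6 after 15 min, and 21.2 and 21.99 after 60 min. All 4 heated values lay between those of the controls, whose higher library was 1.77 times the lower. On the scale of log2(signal + 1), its fold change was −0.24 ± 0.29 (limma, SE) at 15 min and −0.14 ± 0.29 at 60 min, with adjusted p of 0.796 and 0.916. Without control s1 the 60 min value was −0.54 and without control s2 0.25, so its sign rests on which control is used.

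Edf1 is recruited to collided ribosomes, where it brings in translational repressors of the message. Its signal was 199 and 236 in the control libraries, 316.5 and 305 after 15 min, and 305 and 264 after 60 min. Every heated library was above both controls. The mean was 310.75 ± 8.14 at 15 min against 218 ± 26.1 in control (SD, n = 2 each). That is a log2 fold change of 0.52 ± 0.19 (SE, 95% interval 0.053 to 0.98), with an unadjusted limma p of 0.0341 and an adjusted p of 0.747. At 60 min it was 0.38 ± 0.19 (adjusted p = 0.687). Control s1, in which abundant genes were low, held the lowest value. Without it the 15 min difference was 0.39 and the 60 min difference 0.26, and without control s2 they were 0.64 and 0.51.

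Ascc3 is the helicase of the complex that separates the leading ribosome of a collision. Its signal was 20.8 and 21.6 in the control libraries, 20.4 and 22.9 after 15 min, and 29.0 and 28.1 after 60 min. The 60 min libraries were above the other 4, while those of 15 min straddled the controls. The mean was 28.6 ± 0.674 at 60 min against 21.2 ± 0.518 in control (SD, n = 2 each), a log2 fold change of 0.41 ± 0.18 (95% interval −0.019 to 0.84). The unadjusted limma p was 0.0581 and the adjusted p 0.625. Against 15 min the difference was 0.39 ± 0.18 (adjusted p = 0.852). A pseudogene within Ascc3, Gm48333, was at 76.5 and 9.38 in the control libraries, 13.04 and 6.24 after 15 min, and 14.5 and 37.0 after 60 min, above Ascc3 itself in control s1 and 60 min s2. Its part in the Ascc3 value was not tested.

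Map3k20 encodes ZAK, a kinase that senses stalled and collided ribosomes and starts stress-activated MAP kinase signalling. Its signal was 7.21 and 8.48 in the control libraries, 5.71 and 8.69 after 15 min, and 8.01 and 7.56 after 60 min. The 3 groups overlapped. At 60 min the log2 fold change was −0.0060 ± 0.25, with a 95% interval of −0.62 to 0.60. The gene makes a long form that binds ribosomes and a short form, which values per gene do not separate.

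Pelo and Hbs1l act as partners. Pelota, the product of Pelo, is related to the release factor and enters the empty decoding site of a stalled ribosome, and the GTPase Hbs1l delivers it. Pelo signal was 10.3 and 16.2 in the control libraries, 14.0 and 13.2 after 15 min, and 10.7 and 8.54 after 60 min. The 60 min libraries lay below both 15 min libraries but overlapped the controls. The log2 fold change at 60 min was −0.40 ± 0.26 against control (limma adjusted p = 0.765) and −0.47 ± 0.26 against 15 min (adjusted p = 0.895). Without control s1 the first of these was −0.70, and without control s2 −0.105.

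Hbs1l signal was 79.8 and 86.4 in the control libraries, 81.2 and 82.2 after 15 min, and 97.0 and 90.9 after 60 min. Both 60 min values were above the other 4, by a small margin. The mean was 93.9 ± 4.28 at 60 min against 83.1 ± 4.69 in control (SD, n = 2 each), a log2 fold change of 0.18 ± 0.17 (limma adjusted p = 0.858). The ratio of Pelo to Hbs1l within a library, which no scaling of whole libraries can alter, was 0.13 and 0.187 in control, 0.173 and 0.16 at 15 min, and 0.11 and 0.094 at 60 min. The 60 min ratios were the lowest of the 6.

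Gtpbp1 and Gtpbp2 encode paralogous GTPases related to Hbs1l. Gtpbp2 binds pelota, and the loss of either protein increases ribosome stalling in mouse neurons that lack the arginine tRNA. Gtpbp2 signal was 65.3 and 66.4 in the control libraries, 68.5 and 75.6 after 15 min, and 40.1 and 35.9 after 60 min. Both 60 min values were far below the other 4, and both 15 min values were slightly above the controls. The mean was 38.0 ± 2.95 at 60 min against 65.8 ± 0.797 in control, and against 72.02 ± 5.02 at 15 min (SD, n = 2 each).

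The Gtpbp2 difference at 60 min was larger than the spread between libraries but did not pass over all genes. Against control the log2 fold change was −0.78 ± 0.18 (SE, 95% interval −1.20 to −0.36), with an unadjusted limma p of 0.00376 and an adjusted p of 0.375. A smaller unadjusted p was found for 219 of 21954 genes. Against 15 min it was −0.91 ± 0.18 (95% interval −1.33 to −0.48, unadjusted p = 0.00173, adjusted p = 0.403), with a smaller p for 93 genes. At 15 min against control it was 0.13 ± 0.18 (adjusted p = 0.823). The control libraries agreed closely for this gene: the 60 min difference was −0.79 without control s1 and −0.77 without control s2. Both values kept their sign in all 17 alternatives run, from −0.86 to −0.58 against control and from −1.05 to −0.79 against 15 min. Of the progenitor markers, 6 of 9 had lower values at 60 min than in control, as did 13690 of the 21954 genes tested. Against 15 min, 8 of 9 were lower, as were 10808 of all genes tested. Both 60 min libraries were above both controls for 3 of 9 (Vim, Fabp7 and Slc1a3), against 12.8% of all genes. They were below both for 3 of 9 (Sox2, Hes1 and Eomes), against 19.8%. The 9 markers summed to 3138 and 2710 in the 60 min libraries against 2378 and 2688 in the controls. Vim made up most of this sum, at 2180 and 1945 against 1413 and 1786. Eomes, a marker of intermediate progenitors, was at 45.8 and 40.6 against 89.9 and 101.8 (limma adjusted p = 0.201). The part of progenitor cells in the Gtpbp2 value was not tested. In RNA from mixed cells, fewer cells of a type and less RNA per cell cannot be told apart.

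Gtpbp1 signal was 96.8 and 108.9 in the control libraries, 122.5 and 105 after 15 min, and 109.6 and 96.5 after 60 min. Its groups overlapped in every comparison. The log2 fold change at 60 min was 0.0021 ± 0.19 against control (95% interval −0.45 to 0.46) and −0.14 ± 0.19 against 15 min (limma adjusted p = 0.931). The ratio of Gtpbp2 to Gtpbp1 within a library was 0.674 and 0.61 in control, 0.559 and 0.721 at 15 min, and 0.366 and 0.372 at 60 min. The 60 min ratios were below all others and close to each other. By contrast, the ratio of Nemf to Ltn1 was 1.63 and 1.05 in control, 1.72 and 1.35 at 15 min, and 1.71 and 1.44 at 60 min, with overlap between all groups. With 2 libraries against 2, an exact permutation test cannot give a two-sided p under 0.333, so no test of these ratios is reported. All 3 ratios were chosen after the values were seen.

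**Figure D2:**
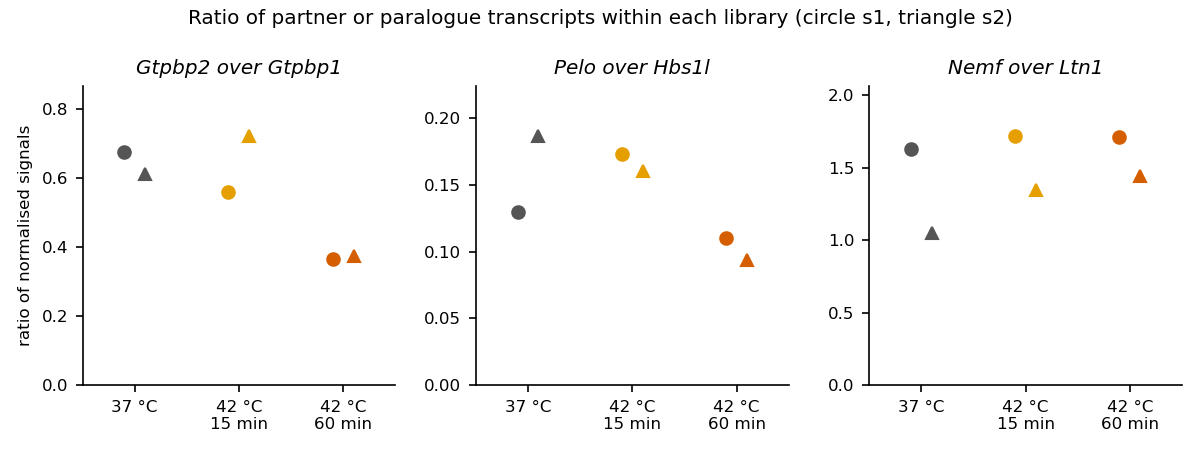
Ratio of the normalised signals of 2 transcripts within each library (vertical axis, linear from 0) by group on the horizontal axis; circles are s1 and triangles s2. The ratio of Gtpbp2 to Gtpbp1 is 0.366 and 0.372 at 60 min, against 0.559 to 0.721 in the other 4 libraries.

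The promoters of these paralogues are shown because their transcripts differed in value under the same heat. Each line gives the 250 bases before the gene's RefSeq start, 5′ to 3′ on the plus strand of build GRCm38.p6, chr17:46160782-46161031 for Gtpbp2 and chr15:79690646-79690895 for Gtpbp1. These come from RefSeq and not from the authors' build. Capitals mark ACTACAA, the core of a ZNF143 site, GGGCGG, a GC box, and CCAAT, each on either strand.
Gtpbp2: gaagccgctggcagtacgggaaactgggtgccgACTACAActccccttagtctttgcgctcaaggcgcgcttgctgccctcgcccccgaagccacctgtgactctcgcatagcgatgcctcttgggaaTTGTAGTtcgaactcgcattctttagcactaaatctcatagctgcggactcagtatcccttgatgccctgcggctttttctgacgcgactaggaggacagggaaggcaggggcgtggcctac
Gtpbp1: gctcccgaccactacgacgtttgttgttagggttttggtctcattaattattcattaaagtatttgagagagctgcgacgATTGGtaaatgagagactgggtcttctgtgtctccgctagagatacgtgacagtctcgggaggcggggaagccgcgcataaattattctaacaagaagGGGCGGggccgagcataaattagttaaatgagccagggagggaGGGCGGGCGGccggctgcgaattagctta

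The Gtpbp2 sequence held 2 matches to ACTACAA, 1 on each strand, and 0 GC or CCAAT boxes. The Gtpbp1 sequence held 3 GC boxes, the last 2 of them overlapping, 1 CCAAT box and 0 matches to ACTACAA. All 10 genes had a promoter entry, in 11 windows of 300 bases, which had a median GC content of 61.7% against 52.7% over 32851 windows of all genes. TGATGNAA, the composite element bound by ATF4, was in 0 of the 11 windows and in 3.97% of all windows. GAANNTTC, a core of heat shock elements, was in 0 of the 11 and in 7.86% of all. GGGCGG was in 5 of the 11 and 35.7% of all, CCAAT in 5 and 37.4%, and ACTACAA, chosen after the sequence was seen, in 2 and 3.24%. Both strands were searched. A missing match says only that these letters are not in the window.

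Nemf and Ltn1 work on the large subunit left after splitting. Nemf recognises the tRNA and chain still held there, adds a tail to the chain and brings in Ltn1 (listerin), the ubiquitin ligase that marks the chain for the proteasome. Nemf signal was 38.2 and 34.9 in the control libraries, 51.1 and 41.5 after 15 min, and 48.5 and 44.5 after 60 min. Every heated library was above both controls. Its log2 fold change was 0.33 ± 0.19 at 15 min (limma adjusted p = 0.747) and 0.34 ± 0.19 at 60 min (adjusted p = 0.748).

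Ltn1 signal was 23.4 and 33.3 in the control libraries, 29.7 and 30.8 after 15 min, and 28.4 and 30.8 after 60 min. As for Zfp598, all heated values lay between the controls. The log2 fold change was 0.11 ± 0.22 at 15 min and 0.078 ± 0.22 at 60 min (limma adjusted p of 0.88 and 0.942). Without control s1 the 60 min value was −0.17, and without control s2 it was 0.32.

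Taken as a list, the 10 transcripts had median log2 fold changes near 0, but their single values were spread among those of all genes. At 60 min against control they ran from percentile 5.99 of all genes tested (Gtpbp2) to percentile 91 (Ascc3). Edf1 was at percentile 90 and Nemf at 87.9. At 15 min they ran from percentile 38.2 (Zfp598) to 94.9 (Edf1). At 15 min, 0 of 10 passed limma's adjusted p of 0.05, as did 0% of the 21954 genes tested, and the smallest adjusted p among the 10 was 0.747. At an unadjusted p of 0.05, Edf1 was the 1 of 10 past the threshold, against 3.95% of all genes. Split by direction, that was 1 of 10 higher and 0 of 10 lower, against 2.09% higher and 1.86% lower over all genes. This count depended on the setting: the unadjusted p of Edf1 ran from 0.019 to 0.129 over the alternatives, and that of Zfp598 was 0.0152 without control s1. Both 15 min libraries were above both controls for 3 of 10 (Edf1, Nemf and Gtpbp2), against 15.1% of all genes, and below both for 0 of 10, against 18.9%. The median log2 fold change of the 10 was 0.088, and that of all genes tested −0.098. With median-of-ratios scaling that median of all genes was 0.174, the 10 genes had a median of 0.408, all 10 values were above 0, and Edf1 and Nemf stood at 0.86 and 0.66. With quantile normalisation Edf1 was at 0.296.

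After 60 min, 0 of 10 passed against control, where 0.041% of all genes did, and the smallest adjusted p was 0.375. Gtpbp2 was the 1 of 10 with an unadjusted limma p under 0.05, against 8.34% of all genes. That was 0 of 10 higher and 1 of 10 lower, against 2.92% higher and 5.41% lower over all genes. With median-of-ratios scaling Gtpbp2 had an unadjusted p of 0.239, leaving 0 of 10. Ascc3 was also under 0.05 with the replicate block (0.0399), with no filter (0.00771), with a mean of at least 5 (0.0489), with quantile normalisation (0.0193) and without control s2 (0.0395, beside 0.0387 for Edf1). Without control s1, Zfp598 (0.0252) and Pelo (0.0255) were under it. Both 60 min libraries were above both controls for 4 of 10 (Ascc3, Edf1, Nemf and Hbs1l), against 12.8% of all genes, and below both for Gtpbp2, 1 of 10, against 19.8%. Abundant genes were low in control s1, and their part in the first share was not tested. The median of the 10 was 0.040, and that of all genes −0.12.

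Between 60 and 15 min, 0 of 10 passed, against 0.0182% of all genes. Again Gtpbp2 was the 1 of 10 with an unadjusted p under 0.05, against 6.19% of all genes, or 0 of 10 higher against 2.11% and 1 of 10 lower against 4.08%. Its p stayed under 0.05 in all 17 alternatives (0.000629 to 0.0476), while in some of them Ascc3 (lowest 0.00974) or Pelo (lowest 0.044) joined it. The 60 min libraries were above both 15 min libraries for Ascc3 and Hbs1l, 2 of 10 against 25.9% of all genes. They were below both for Gtpbp2, Pelo and Edf1, 3 of 10 against 22.6%, although for Edf1 the closest values of both groups round to 305. The median of the 10 was −0.0097 and that of all genes 0.00087. These 3 comparisons share libraries, so their values are not independent of each other.

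**Figure D3:**
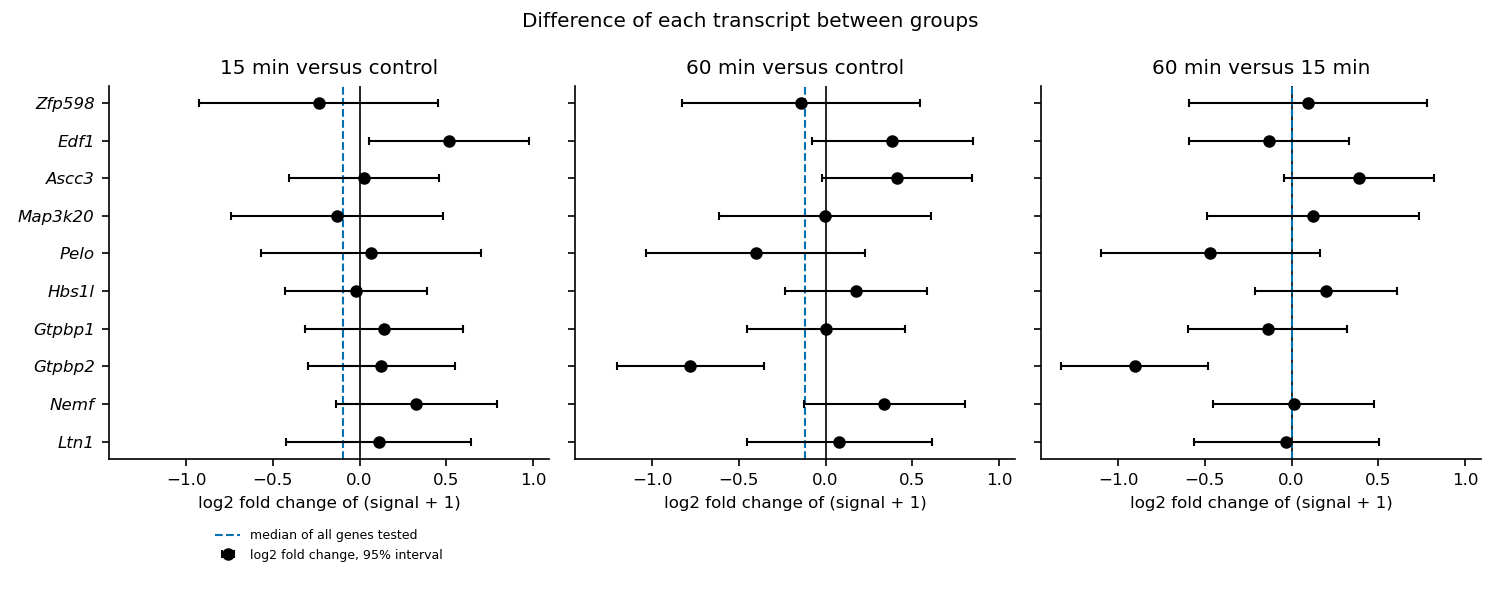
Log2 fold change of (signal + 1) with its 95% interval from limma (horizontal axis) for each of the 10 transcripts, in 3 comparisons; the dashed line is the median of all genes tested. The Gtpbp2 interval lies below 0 at 60 min against control (−1.20 to −0.36) and against 15 min (−1.33 to −0.48), the Edf1 interval lies above 0 at 15 min against control, and all other intervals include 0.

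The 58 related genes, in 6 lists, gave 0 calls in any comparison. Few genes of any kind were called: 0.041% of all genes tested at 60 min against control, 0% at 15 min and 0.0182% between the heat times. Over all 21954 genes tested, 8197 had higher and 13690 lower values at 60 min than in control. Among 15 genes of collision sensing and small-subunit ubiquitination, 9 had higher and 6 lower values at 60 min than in control (median log2 fold change 0.077). Cnot4, a ubiquitin ligase, had 27.6 and 28.7 at 60 min against 18.1 and 20.6 in control (limma adjusted p = 0.541), and Otud3, a deubiquitinase, 13.6 and 12.03 against 18.6 and 17.8 (adjusted p = 0.589). Rack1, the small-subunit protein that Zfp598 needs, had 888 and 798 against 525 and 764 (adjusted p = 0.748). Gcn1l1, which lies across collided ribosomes and helps activate GCN2, had 33.4 and 38.3 against 34.5 and 52.4 (adjusted p = 0.862).

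Eif2ak4, which encodes GCN2, the eIF2α kinase that stalled ribosomes can activate, had lower values in every heated library. Its signal was 18.4 and 17.9 in the control libraries, 13.5 and 13.9 after 15 min, and 13.7 and 13.7 after 60 min. The log2 fold change was −0.38 ± 0.18 at 15 min and −0.39 ± 0.18 at 60 min (limma adjusted p of 0.747 and 0.66). Unlike Gtpbp2, its 15 min and 60 min values were close to each other, with a difference of −0.0030 ± 0.18.

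For splitting, recycling and termination, 8 of 9 genes had higher values at 60 min (median 0.35). Abce1, the ATPase that splits the subunits after pelota or the release factor has acted, had 79.4 and 77.1 at 60 min against 55.9 and 67.1 in control (limma adjusted p = 0.705). Etf1, the release factor related to pelota, had 152 and 141 against 106.6 and 118 (adjusted p = 0.65), and Rwdd1 95.6 and 85.3 against 68.7 and 69.2 (adjusted p = 0.641). Both 60 min libraries were above both controls in 7 of these 9 genes and in 6 of 7 elongation factors, against 12.8% of all genes. Below both controls were 1 of 9 and 0 of 7, against 19.8% of all genes. The 1 gene was Gspt2, a release factor GTPase named after its values were seen, at a mean of 1.76 at 60 min against 3.06 in control, a log2 fold change of −0.55 ± 0.30 (limma adjusted p = 0.727). All 7 elongation factors had higher values (median 0.43), with Eef1g at 1088 and 1075 against 677 and 796 (adjusted p = 0.541) and Eef1a1 at 7048 and 5730 against 4275 and 3787 (adjusted p = 0.582). Of the factors that act just before or beside these steps, Pelo and Gtpbp2 had log2 fold changes of −0.40 and −0.78. The partner Hbs1l and the paralogue Gtpbp1 were at 0.18 and 0.0021. None of these passed the test, and Pelo at 60 min overlapped its controls. The part of control s1, in which abundant genes were low, was not tested here either.

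In nascent chain quality control, 5 of 8 genes had higher values at 60 min (median 0.13). Nploc4, a cofactor of the segregase that extracts marked chains, had 33.6 and 31.0 against 37.9 and 48.2 in control, and Klhdc10, a ubiquitin ligase adaptor for tailed chains, 112.6 and 103.4 against 89.6 and 84.7 (limma adjusted p of 0.686 and 0.748). In decay of messages with stalled ribosomes, 7 of 10 were higher (median 0.061). Exosc4, an exosome subunit, had 14.6 and 14.3 against 22.1 and 28.6, and Xrn1, the exonuclease acting from the other end, 69.5 and 71.0 against 61.2 and 53.1 (adjusted p of 0.428 and 0.748). Of 9 kinases downstream of Map3k20, 7 had lower values (median −0.13), close to all genes, of which 13690 of 21954 had lower values (median −0.12). Map2k7, which activates JNK, had 12.1 and 9.59 against 21.1 and 31.4, and Map2k3, another MAP kinase kinase, 7.24 and 5.29 against 10.8 and 11.3 (adjusted p of 0.364 and 0.484). The log2 fold change of Map2k7, −1.18 ± 0.25, was the lowest among the 58 related genes, beside −0.78 for Gtpbp2 and −0.0060 for Map3k20 itself.

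At 15 min against control the median log2 fold changes of these lists were 0.21 for collision sensing, 0.24 for splitting and termination, 0.082 for nascent chain control, 0.11 for decay, −0.085 for the kinases and 0.40 for elongation. The smallest limma adjusted p in each list was 0.747. Map2k7, which was lowest at 60 min, had 23.1 and 25.4 at 15 min, within the range of its controls. Gtpbp2 shared this pattern of a low value at 60 min alone, and Exosc4 had 22.4 and 22.8 at 15 min.

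**Figure D4:**
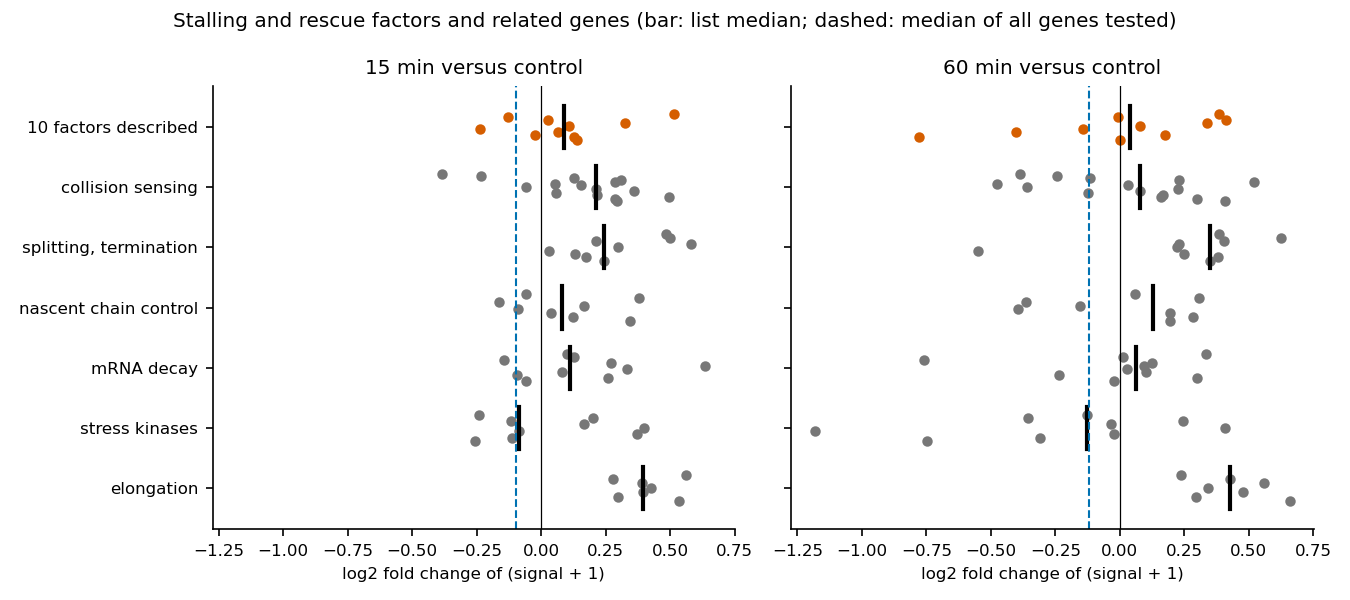
Log2 fold change of (signal + 1) against control (horizontal axis) of the 10 factors (orange) and of the 58 related genes by list (grey), at 15 min and 60 min; bars are list medians and the dashed line the median of all genes tested. At 60 min the medians run from −0.13 for the stress kinases to 0.43 for elongation factors, with 0.040 for the 10 factors, of which Gtpbp2 is the point at −0.78.

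Some of these values could include reads of other genes. In the GENCODE M21 annotation, which is of an older build, Pelo lies within Itga1 and Gm49395 on the same strand and overlaps the antisense gene Gm10734. Itga1 was at 1.73 to 3.39, Gm49395 at 0.553 to 1.52 and Gm10734 at 0.410 to 1.54, all below the lowest Pelo value, 8.54. Gm48333, within Ascc3 on the same strand, was at 6.24 to 76.5 and exceeded Ascc3 in 2 libraries. Gtpbp1 overlaps Gm26884 on the opposite strand, with 254 bases at 100% identity, and n-R5s40 on the same strand. Neither is among the genes of the table, so no value can be given for them. Nemf overlaps Klhdc2 on the opposite strand by 166 bases, at 79.8 to 116. Hbs1l has a pseudogene, Gm9923, with 1836 bases at 99.9% identity, which was at 3.79 to 4.86, and Edf1 has Gm11964, with 447 bases at 96.6% identity, at 0 to 0.971. Map3k20 overlaps the pseudogene Rpl36a-ps4 on the same strand, at 0 to 3.74, the highest in 60 min s1 beside 8.01 for Map3k20. It also overlaps Zakit on the same strand, which is not among the genes of the table. Hbs1l overlaps the antisense gene 4930455C13Rik, at 0.411 to 2.54. For Gtpbp2 and Zfp598 no overlapping gene and no copy of at least 200 bases at 95% identity was found. Whether reads were counted by strand is not given in the sources used here.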

How the data were processed

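Per the labels, libraries were made with a kit that depletes ribosomal RNA and read single-end at 100 bp. Per the submitters' processing notes, kallisto, sleuth and build GRCm39 were used; no source used here gives versions, annotation release or strand use. The authors deposited a normalised signal per gene, named TPM, whose column totals ran from 892768 to 1056383, so a further factor per library is present and its making is not stated. Each column was assigned to a group only, and its suffix (s1 or s2) serves as a name.

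Genes were kept where the mean signal reached 1 (21954 of 55538), and log2(signal + 1) was modelled in limma 3.58.1 (R 4.3.3) by group alone, across the 6 libraries, with a mean-variance trend and 3 residual degrees of freedom. Tests were two-sided, and p-values were adjusted by the Benjamini-Hochberg method across all of these genes, with a threshold of 0.05. This scale understates fold changes of low genes. All 10 genes passed the filter and are all reported. From each of 6 related lists the 2 genes with the smallest unadjusted p at 60 min were named, plus Eif2ak4, Gcn1l1, Abce1 and Rack1. Members, lists and tests were chosen with earlier results of these data known. Map2k7, Exosc4 and the genes set beside them at 15 min, Gspt2, Mapk11, the within-library ratios and ACTACAA were chosen after values or sequences were seen. Alternatives changed the pseudocount, filter, scaling, variance model, libraries fitted and replicate block. The fit was tested on simulated data. Copies were sought with blastn 2.17.0, and promoters are from RefSeq, GRCm38.p6. Ribosome-associated RNA and protein sequences were not analysed here.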

Additional observations from a re-analysis of the deposited data

Results flagged for a closer look

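Gtpbp2 was singled out because its values differed between the 2 heat times. Those of 68.5 and 75.6 at 15 min were above both controls (65.3 and 66.4), and those of 40.1 and 35.9 at 60 min were below them. The difference between the heat times is the contrast of 60 min with 15 min, a log2 fold change of −0.905 with an unadjusted limma p of 0.00173 and an adjusted p of 0.403. At 15 min against control the value was 0.126. It was positive in all 17 alternatives but as low as 0.00196, and its 95% interval, −0.30 to 0.55, includes 0. By the sign of the log2 fold change alone, Pelo (0.066 at 15 min, −0.40 at 60 min) and Hbs1l (−0.023 and 0.18) also lay on opposite sides of control. No other gene of the 10 showed this pattern in both libraries of each heat time. Among the related genes Mapk11, a kinase downstream of Map3k20, did. Its mean was 23.3 at 15 min and 15.6 at 60 min, against 20.2 in control. Both its 15 min libraries were above both controls, and both its 60 min libraries were below them. The share of all genes with this pattern was not counted. Taken singly, 15.1% had both 15 min libraries above both controls, and 19.8% had both 60 min libraries below both.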

How the results depend on the processing

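In all 17 alternatives, 0 of the 10 transcripts passed in each of the 3 comparisons. The sign of the log2 fold change was the same throughout for 6 of 10 at 60 min against control (Gtpbp2, Pelo, Ascc3, Edf1, Nemf and Hbs1l), 3 of 10 at 15 min (Edf1, Nemf and Gtpbp2) and 6 of 10 between the heat times. Of 510 single values, 59 moved by more than the replicate SD.

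Counts of called genes depended on the setting. At 60 min against control the count was 9, and 5 with a pseudocount of 5, 27 with no filter, 28 with median-of-ratios scaling, 2 with only the 4 libraries compared, and 0 to 146 with a library left out: 48 without control s1, 146 without control s2, 2 without either 15 min library and 0 without either 60 min library. At 15 min it was 0 (868 genes at an unadjusted p under 0.05), and 36 with no filter, 7 with median-of-ratios scaling and 0 to 216 with a library left out, 41 without control s1 and 216 without control s2. Between the heat times it was 4, and 54 with no filter, 34 with median-of-ratios scaling, 9 with quantile normalisation, 10 without the trend, 0 with the 4 libraries compared, and 0 to 2 with a library left out. The causes were not tested.

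The median log2 fold change of the 10 at 60 min against control, 0.040, was 0.234 with median-of-ratios scaling, 0.143 with quantile normalisation and −0.0959 to 0.242 with a library left out, the lowest without control s1 and the highest without control s2. At 15 min, 0.088 became 0.408 with median-of-ratios scaling, −0.0164 when scaled without mitochondrial genes, and −0.0388 to 0.191. Between the heat times, −0.0097 became −0.151 with median-of-ratios scaling, 0.0993 with quantile normalisation and −0.0705 to 0.021. Under median-of-ratios scaling the median of all genes was 0.043 at 60 min, 0.174 at 15 min and −0.117 between the heat times. With s1 and s2 as a replicate block, 8, 0 and 4 genes passed, and Gtpbp2 had an adjusted p of 0.219 at 60 min against control. Same-suffix libraries deviated together with correlations of 0.0786 to 0.224, and nothing says that the suffix marks a shared culture. With 1 library left in a group, it was assumed to vary like the others. Depth is unknown, so no detection limit is given.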
